A study of Mus musculus with 9 samples.

Results

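The VEGF and angiopoietin systems were followed through 10 genes taken by name from the 37840 genes of the count tables, and all 10 were found. They are the ligands Vegfa, Vegfb, Vegfc and Angpt1, the receptor tyrosine kinases Flt1, Kdr, Tek and Tie1, and the co-receptors Nrp1 and Nrp2. RNA of single nuclei from the ventricles of C57BL6/J mice was counted by sNucDrop-Seq, in which a nucleus meets a barcoded bead in a droplet and each captured RNA molecule is counted once through its unique molecular identifier (UMI). There were 9 libraries. The KO P10 group (3 libraries) had the genotype ERRαKO/ERRγKO and was taken at postnatal days 9 to 10. The control P10 group (3 libraries) was ERRαHet/ERRγWT at the same days, and the control P6 group (3 libraries) was ERRαHet/ERRγWT at postnatal day 6. Controls therefore lacked 1 of the ERRα alleles too. The labels do not say how or in which cells the ERRα and ERRγ genes were inactivated, which ventricles were fresh and which frozen, or whether each library is from an animal of its own, so p-values measure the spread between libraries. The same control P10 libraries serve in both comparisons, KO P10 against control P10 and control P10 against control P6.

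VEGF-A, secreted by muscle and many other cells, acts on endothelial cells through the kinase KDR (VEGFR2) and drives the growth and permeability of vessels, while FLT1 (VEGFR1) binds VEGF-A and VEGF-B tightly but signals weakly and can act as a decoy. VEGF-C is best known as the growth factor of lymphatic vessels. The neuropilins Nrp1 and Nrp2 have no kinase of their own and serve as co-receptors both for VEGFs and for class 3 semaphorins. Angiopoietin 1, mostly made by cells around the endothelium, activates the endothelial kinase TIE2 (Tek), which stabilises vessels, and TIE1 is a relative of TIE2 that works together with it. In the heart after birth the capillary bed grows along with the cardiomyocytes, which are a main source of VEGF-A. In mouse skeletal muscle, ERRα acts with the coactivator PGC-1α to raise Vegfa.

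The libraries held 2608067 to 5769630 UMIs, and 25311 nuclei were kept of 33000 barcodes, with 1788 to 3682 per library. KO P10 libraries 1 and 2 shared 465 barcodes, against at most 12 for any other pair, and 464 of these were left out of library 2. Xist, an RNA of the inactive X chromosome, was high in KO P10 library 1, control P10 library 1 and all control P6 libraries, which had 12 to 35 Y-linked UMIs. The other P10 libraries had 1492 to 1975 Y-linked UMIs, and of these KO P10 library 2 also had 889 Xist UMIs. Control P6 was thus Xist-high throughout while control P10 libraries 2 and 3 were Y-high, so sex differs along with age between the control groups. Mitochondrial RNA took 0.888% to 40.8% of the UMIs of a library, the most in control P10 library 1. Mitochondrial genes were left out of all UMI sums, shares and CPM that follow. Clusters were named from markers that did not include the 10 genes, giving 10490 nuclei that were cardiomyocyte-like, 4448 that were fibroblast-like, 1865 endothelial-like ones and 1345 endocardial-like ones, enough to be tested. The fewest in a library were 775, 269, 90 and 61 nuclei of these classes. The cardiomyocyte-like nuclei were spread unequally over clusters in the 3 groups. Of them, cluster 6 took 21.4% at KO P10, 40.6% at control P10 and 81.7% at control P6, cluster 7 took 42.9%, 53.4% and 8.26%, and cluster 8 took 32.8%, 0.841% and 0.285%. The knockout share of cluster 8 came mostly from KO P10 library 2, with 801 nuclei, against 15 from library 1 and 225 from library 3. The targeted genes matched the labels. Esrra, which encodes ERRα, had 9.02, 25.5 and 20.9 CPM in cardiomyocyte-like nuclei of KO P10, 109.9, 95.7 and 74.6 CPM in control P10 and 92.7, 129 and 118 CPM at control P6. Esrrg, which encodes ERRγ, had 896, 689 and 801 CPM at KO P10, 2099, 1304 and 1684 CPM in control P10 and 639, 850 and 491 CPM at control P6. The deleted part of either gene was not stated, so reads outside it may remain in the counts. CPM, the usual scaling of counts to a common library total, were taken from UMIs summed over the nuclei of a class, with TMM factors computed within that class. That scaling placed the age changes 0.16 log2 units higher than library totals would in cardiomyocyte-like and 0.14 higher in endothelial-like nuclei, and all changes below are relative to it.

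Each gene had its own place among the classes. Over the 9 libraries Vegfa averaged 519 ± 217 CPM in cardiomyocyte-like nuclei (SD, n = 9) and 114 to 146 CPM in each of the other classes. Kdr averaged 506 ± 240 CPM in endothelial-like nuclei and 148 ± 60.8 CPM in endocardial-like nuclei (SD, n = 9). The Kdr ranges of these classes, 261 to 862 and 58.8 to 233 CPM, did not overlap. Flt1, Tek and Tie1 had their highest mean over the 9 libraries in endocardial-like nuclei with 913, 913 and 482 CPM, followed by endothelial-like nuclei with 806, 394 and 283 CPM. At control P6 alone Flt1 was higher in endothelial-like (998.7 CPM) than in endocardial-like nuclei (889 CPM). For Flt1 and Tie1 the ranges of these neighbouring classes overlapped, whereas for Tek they did not (596 to 1166 CPM and 332 to 486 CPM). Fibroblast-like nuclei averaged 307 CPM of Tek, with a range that overlapped the endothelial-like one (190.5 to 495 CPM). At control P10 alone their Tek mean was the higher, 443.9 CPM against 392.5 CPM in endothelial-like nuclei. Nrp1 was found throughout, with 1485 CPM in endocardial-like, 978 in endothelial-like, 693 in cardiomyocyte-like and 458 CPM in fibroblast-like nuclei, and ranges of neighbours in this order overlapped. Nrp2 was highest in endothelial-like nuclei at 428 CPM, followed by endocardial-like nuclei at 127 CPM, with ranges that just overlapped (199 to 654 and 35.2 to 213 CPM). Angpt1 averaged 197 CPM in endocardial-like, 80.6 in fibroblast-like, 61.1 in cardiomyocyte-like and 37.5 CPM in endothelial-like nuclei, with overlapping ranges. KO P10 libraries 2 and 3 carried the endocardial-like mean, and at control P10 the means were 93.4 CPM in cardiomyocyte-like, 84.2 in fibroblast-like and 83.9 CPM in endocardial-like nuclei. Vegfb lay between 61.6 and 85.8 CPM in all 4 classes, and Vegfc at 22.1 CPM in cardiomyocyte-like nuclei and at 78.7 to 94.6 CPM in the others. Per kilobase of gene span, the mean levels in cardiomyocyte-like nuclei were 21.2, 30.3 and 49.8 CPM for Vegfa and 2.20, 6.43 and 5.73 CPM for Nrp1 at KO P10, control P10 and control P6, so on that scale Vegfa was the more abundant.

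**Figure D1:**
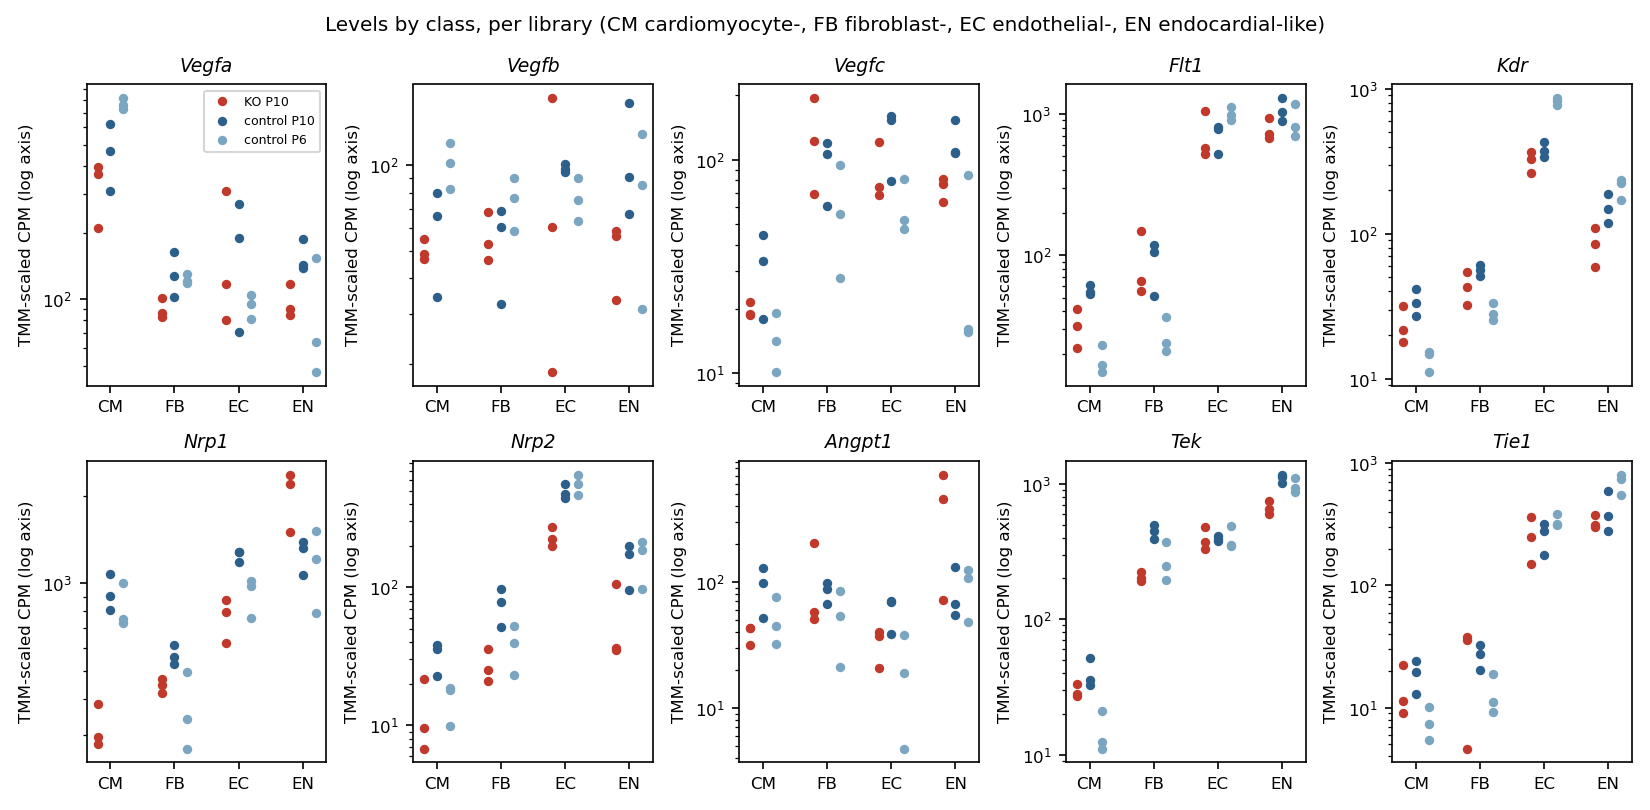
Level of each of the 10 genes (TMM-scaled CPM, log axis) in cardiomyocyte-like (CM), fibroblast-like (FB), endothelial-like (EC) and endocardial-like (EN) nuclei, 1 point per library, with KO P10 in red, control P10 in dark blue and control P6 in light blue. Vegfa is highest in CM, Kdr and Nrp2 in EC, Flt1 and Tie1 in EC and EN, and Tek in EN, with overlapping Tek values in EC and FB. Nrp1 is at 269 CPM or more in every class and library.

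Vegfa in cardiomyocyte-like nuclei was lower at P10 than at P6 in every library, but with differences that missed the threshold, and it did not separate knockouts from controls. The gene lies on chromosome 17 from 46016993 to 46032369 on the minus strand (GRCm38). It had 211, 396 and 371 CPM in KO P10 libraries 1 to 3, 308, 619 and 470.4 CPM in control P10 libraries and 725, 758 and 814 CPM in control P6 libraries. The KO P10 and control P10 values overlapped, and all control P6 values lay above those of P10. The log2 fold change was −0.52 ± 0.29 (SE, adjusted p = 0.258, edgeR) for KO P10 against control P10 and −0.71 ± 0.29 (adjusted p = 0.0966) for control P10 against control P6. Without control P10 library 2, the highest of its group, the age difference passed at −0.95 (adjusted p = 0.0390). Vegfa was among the leading genes of cluster 6, which held unequal shares of the 3 groups, although it took no part in the clustering. Within cluster 6 alone it had 266, 342 and 360.2 CPM at KO P10, 189.9, 686 and 409 CPM in control P10 and 705, 863 and 957 CPM at control P6. Within cluster 7 it had 231, 364 and 363 CPM at KO P10, 282, 657 and 487 CPM in control P10 and 753, 779 and 909 CPM at control P6. The separation of control P6 from the P10 libraries thus also held inside each of these clusters. With every nucleus thinned to 500 UMIs, 13.5%, 20.7% and 31.5% of cardiomyocyte-like nuclei had a Vegfa UMI at KO P10, control P10 and control P6 (26.3%, 38.5% and 49.8% before thinning). The shares in endothelial-like nuclei were 5.56%, 6.62% and 4.19%. Median depths were 952, 1014 and 911 UMIs in cardiomyocyte-like and 730.5, 890.0 and 807 UMIs in endothelial-like nuclei.

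In endothelial-like nuclei Vegfa was higher at control P10 than at control P6, through some libraries only. It had 80.4, 308 and 117 CPM at KO P10, 70.6, 269 and 189.7 CPM in control P10 and 81.0, 94.7 and 104 CPM at control P6. Control P10 library 1 lay below all control P6 libraries, so the groups overlapped. Library 1 of each P10 group was Xist-high like all of control P6, with 80.4 CPM (KO P10) and 70.6 CPM (control P10). The Y-high libraries had 308 and 117 CPM (KO P10) and 269 and 189.7 CPM (control P10). The part of sex in the Vegfa change was not tested. The log2 change for control P10 against control P6 was 1.08 ± 0.37 (SE, adjusted p = 0.0318, edgeR), in a comparison in which 14.1% of all genes tested rose, 13.7% fell and 27.8% were called and 3 of the 9 tested genes of the 10 (Vegfa, Vegfc and Kdr). The Vegfa call was lost without control P10 library 2 (0.70, adjusted p = 0.211) or 3 (1.10, 0.0813), or without control P6 library 1 (0.99, 0.0794), 2 (1.07, 0.0965) or 3 (1.15, 0.0640). Cardiomyocyte RNA was also higher at P10 as a group mean, but did not follow Vegfa library by library within control P10. The 8 cardiomyocyte markers took 3.68%, 3.18% and 0.935% of endothelial-like UMIs at KO P10, control P10 and control P6. In control P10 libraries 1 to 3 they took 4.00%, 2.38% and 3.15%, the reverse of the Vegfa order. In KO P10 libraries they took 2.49%, 4.50% and 4.05%, the same order as Vegfa. Of cardiomyocyte-like UMIs they took 5.48%, 5.65% and 4.59% in the same groups. In endothelial-like nuclei 7 of them rose in control P10 against control P6. Per 1000 cardiomyocyte marker UMIs, endothelial-like nuclei had a median of 2.98, 5.12 and 8.86 Vegfa UMIs in the 3 groups, and cardiomyocyte-like nuclei had 5.51, 7.44 and 17.5. The part of that RNA in the Vegfa change was not tested. The difference between the age changes of endothelial-like and cardiomyocyte-like nuclei was 1.86 ± 0.28 (adjusted p = 9.17e-09, interaction with the library as a block). In fibroblast-like nuclei Vegfa had 86.2, 82.7 and 102 CPM at KO P10, 102, 164 and 128 CPM in control P10 and 119, 130.1 and 120.3 CPM at control P6, with no change past the threshold.

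Vegfb, which binds FLT1, had 48.7, 46.5 and 55.0 CPM in cardiomyocyte-like nuclei of KO P10, 34.3, 79.9 and 66.0 CPM in control P10 and 82.6, 102 and 119 CPM at control P6. As with Vegfa, every control P6 library was above every control P10 library, and the log2 difference of control P10 from control P6, −0.71 ± 0.27 (SE), did not pass (adjusted p = 0.0746, edgeR). It passed without control P10 library 2 (−0.94, adjusted p = 0.0337). KO P10 and control P10 overlapped (−0.31 ± 0.28, adjusted p = 0.504). No class had a change of Vegfb past the threshold in either comparison. By library, 29.0% to 68.9% of the Vegfb UMIs of kept nuclei lay in clusters that could not be named.

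Vegfc rose with age in 3 classes, at low counts. In cardiomyocyte-like nuclei it had 21.6, 18.8 and 19.0 CPM at KO P10, 44.3, 17.9 and 33.6 CPM in control P10 and 19.1, 14.2 and 10.1 CPM at control P6, from 13 to 58 UMIs a library. The control groups overlapped, and the log2 change for control P10 against control P6 was 1.09 ± 0.35 (SE, adjusted p = 0.0422, edgeR). In endothelial-like nuclei it had 121, 74.7 and 68.7 CPM at KO P10, 153, 79.9 and 160.2 CPM in control P10 and 81.0, 52.1 and 47.3 CPM at control P6, with a change of 1.01 ± 0.35 (adjusted p = 0.0324). In endocardial-like nuclei it had 81.1, 63.4 and 77.4 CPM at KO P10, 107, 109 and 154 CPM in control P10 and 85.3, 16.1 and 15.5 CPM at control P6, a change of 1.95 ± 0.59 (adjusted p = 0.0418) that rested on 1 to 4 UMIs per control P6 library. The control groups stood apart there, in a comparison with 4.49% of all genes higher, 4.2% lower and 8.7% called. Each of these calls was lost without one or another library. In cardiomyocyte-like nuclei the change was 0.88 without control P10 library 1 (adjusted p = 0.125), 1.03 without library 3 (0.137), 1.09 without control P6 library 2 (0.122) and 0.90 without library 3 (0.177). In endothelial-like nuclei it was 0.97 (0.0505), 0.73 (0.258), 0.90 (0.115) and 0.85 (0.126) without the same libraries in that order. In endocardial-like nuclei it was 2.05 (0.0643), 2.01 (0.0561) and 1.78 (0.145) without control P10 library 1, 2 or 3, and 1.39 (0.262) and 1.66 (0.190) without control P6 library 2 or 3. KO P10 against control P10 gave no change of Vegfc past the threshold in any class, and in fibroblast-like nuclei KO P10 libraries had 69.4, 194 and 122 CPM against 107, 60.5 and 120.0 CPM in control P10.

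Of the receptors, Kdr fell with age in endothelial-like nuclei. The gene lies on chromosome 5 from 75932827 to 75978458 on the minus strand. Endothelial-like nuclei had 261, 327 and 364 CPM at KO P10, 341, 428 and 375 CPM in control P10 and 825, 862 and 770.3 CPM at control P6. All P10 libraries lay below all control P6 libraries, while KO P10 and control P10 overlapped. The log2 change was −1.09 ± 0.27 (SE, adjusted p = 0.00324, edgeR) for control P10 against control P6 and passed under all 17 alternatives tried. It was −0.27 ± 0.29 (adjusted p = 0.710) for KO P10 against control P10. With nuclei thinned to 500 UMIs, 14.9%, 16.2% and 28.0% of endothelial-like nuclei had a Kdr UMI at KO P10, control P10 and control P6, against 1.01%, 1.55% and 0.854% of cardiomyocyte-like nuclei (22.7%, 31.3% and 47.2%, and 2.43%, 3.84% and 1.45%, before thinning). Among the control P10 libraries, library 1, the Xist-high one like all of control P6, had the lowest Kdr level. The part of sex in the Kdr change was not tested. Some other endothelial RNA moved in the same direction: 5 of the 11 endothelial markers fell and 1 rose with age in these nuclei, and the markers took 0.599%, 0.609% and 1.35% of UMIs at KO P10, control P10 and control P6. Fabp4 changed most (log2 −2.01) and Mecom rose (0.99). Pecam1 (−0.38), Emcn (0.16), Ldb2 (0.077), Adgrl4 (−0.061) and Cyyr1 (0.84) did not pass. The sum of the markers and ratios to it therefore do not stand for each marker. Relative to those markers Kdr had medians of 0.0468, 0.0513 and 0.0563 UMIs per marker UMI, with overlapping ranges of 0.0490 to 0.0656 at control P10 and 0.0498 to 0.0589 at control P6.

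Flt1 did not pass in endothelial-like nuclei in either comparison. It had 573, 1055 and 522 CPM at KO P10, 518, 787 and 806 CPM in control P10 and 900.1, 1118 and 978 CPM at control P6. All control P10 values lay below those of control P6, but the log2 difference, −0.48 ± 0.30 (SE), did not pass (adjusted p = 0.243, edgeR), and KO P10 against control P10 gave −0.00054 ± 0.30 (adjusted p = 1.00). Per endothelial marker UMI Flt1 had medians of 0.103, 0.0996 and 0.0643 at KO P10, control P10 and control P6, with ranges of 0.0941 to 0.105 at control P10 and 0.0632 to 0.0730 at control P6 that did not overlap. Tek in the same nuclei had 332, 476 and 371 CPM at KO P10, 377, 392.1 and 409 CPM in control P10 and 486, 346 and 354 CPM at control P6. Tie1 had 151, 364 and 247 CPM at KO P10, 177, 278 and 315 CPM in control P10 and 382, 313 and 317 CPM at control P6. Neither passed in either comparison, and the Tek groups overlapped in both.

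In endocardial-like nuclei none of the 4 receptor kinases passed between knockouts and controls. Tek had 596, 747 and 654 CPM at KO P10, 1166, 1122 and 1019 CPM in control P10 and 1108, 934 and 870.3 CPM at control P6. The KO P10 libraries lay below all controls, and the log2 difference from control P10 was −0.73 ± 0.28 (SE, adjusted p = 0.279, edgeR). Kdr had 109.7, 58.8 and 84.4 CPM at KO P10 against 147, 187 and 119 CPM at control P10, a difference of −0.88 ± 0.36 (adjusted p = 0.338) with no overlap. Flt1 had 725, 937 and 675 CPM at KO P10 against 1032, 886 and 1291 CPM at control P10 (−0.45 ± 0.30, adjusted p = 0.648), and Tie1 had 310, 380.1 and 302 CPM against 281, 591 and 367 CPM (−0.35 ± 0.31, adjusted p = 0.758). The groups overlapped for both of these genes. In that comparison 1.23% of all genes tested were called.

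Receptor transcripts counted in cardiomyocyte-like nuclei were few and rose together with age. Flt1 had 41.5, 31.5 and 21.8 CPM at KO P10, 52.8, 54.7 and 61.3 CPM in control P10 and 23.2, 16.6 and 14.8 CPM at control P6. All control P10 libraries lay above all others. For control P10 against control P6 the log2 change was 1.65 ± 0.28 for Flt1 (SE, adjusted p = 0.00156, edgeR), 1.31 ± 0.30 for Kdr (0.00872), 1.48 ± 0.31 for Tek (0.00439) and 1.38 ± 0.41 for Tie1 (0.0293). With Vegfc, 5 of the 10 genes rose and 0 fell in this comparison, in which 8.48% of all genes tested rose, 9.17% fell and 17.7% were called in either direction. Flt1 and Tek passed under all 17 alternatives. Kdr was lost without control P10 library 3 (1.15, adjusted p = 0.0575), and Tie1 without control P10 library 2 (1.18, 0.0870) or 3 (1.39, 0.0820) or control P6 library 2 (1.36, 0.103) or 3 (1.199, 0.136). Endothelial RNA moved with these receptors: of the 11 endothelial markers 6 rose and 0 fell in cardiomyocyte-like nuclei, with a median log2 change of 1.06, and Pecam1, an endothelial adhesion molecule, rose by 1.55 ± 0.30 (adjusted p = 0.00294). The summed markers took 0.0397% to 0.0742% of UMIs at control P10 and 0.0392% to 0.0446% at control P6. The part of that RNA in the receptor changes was not tested. At control P10 cardiomyocyte-like nuclei had a median of 0.0816 Flt1, 0.0526 Kdr, 0.0650 Tek and 0.0270 Tie1 UMIs per endothelial marker UMI, against 0.0996, 0.0513, 0.0535 and 0.0339 in endothelial-like nuclei. In cardiomyocyte-like nuclei these ratios were higher at control P10 than at control P6, with no overlap. For Flt1 they were 0.0774 to 0.111 against 0.0361 to 0.0565, and for Kdr 0.0494 to 0.0569 against 0.0270 to 0.0382. For Tek they were 0.0533 to 0.0689 against 0.0275 to 0.0516, and for Tie1 0.0248 to 0.0361 against 0.0133 to 0.0246. Fabp4, the most abundant of these markers, had a log2 age change of −0.055 there. For the age change of Flt1, the Xist-high control P10 library 1 had 52.8 CPM against 14.8 to 23.2 CPM in the control P6 libraries, which were of the same kind. That is 1 library, and the part of sex in these receptor changes was not tested.

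**Figure D2:**
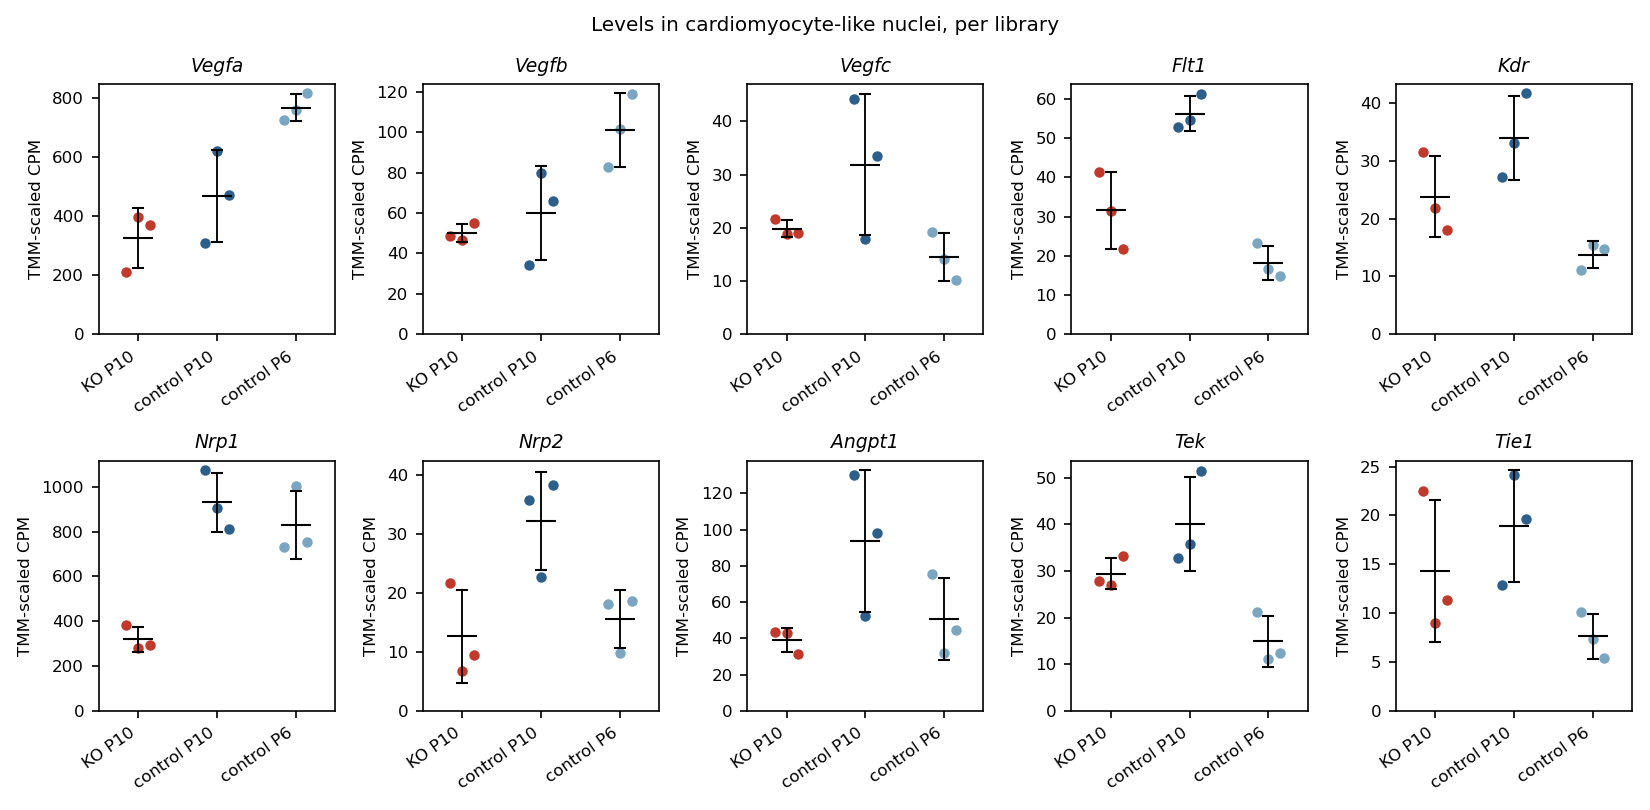
Level of each gene in cardiomyocyte-like nuclei (TMM-scaled CPM, axis from 0), 1 point per library, with the mean and SD of the 3 libraries of KO P10, control P10 and control P6 as bars. Nrp1 lies between 278 and 383 CPM in KO P10 and between 730.2 and 1075 CPM in the control libraries, and Flt1, Kdr, Tek and Tie1 stay at or below 61.3 CPM.

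For KO P10 against control P10 the cardiomyocyte-like change of Flt1 was −0.83 ± 0.27 (SE, adjusted p = 0.0496, edgeR). It was at the threshold and failed under 11 of 17 alternatives, among them leaving out KO P10 library 2 (−0.83, adjusted p = 0.0971) or 3 (−0.64, 0.196) and control P10 library 1 (−0.87, 0.0693), 2 (−0.86, 0.0801) or 3 (−0.77, 0.189). Flt1 was 1 of 4 of the 10 genes that fell in these nuclei, beside Nrp1, Nrp2 and Angpt1, and 0 rose. Of all genes tested there 6.15% fell, 6.66% rose and 12.8% were called in either direction. The 11 endothelial markers had a median log2 change of −0.39 in the same comparison, with 1 called lower and 0 higher.

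In fibroblast-like nuclei Flt1 rose with age, to 50.9, 105 and 118 CPM at control P10, against 23.7, 20.9 and 36.4 CPM at control P6, with 65.2, 147 and 55.4 CPM at KO P10. The log2 change was 1.81 ± 0.42 (SE, adjusted p = 0.00836, edgeR), the 1 call among the 10 genes where 6.47% of all genes tested rose, 6.52% fell and 13% were called. It was lost without control P10 library 3 (1.61, adjusted p = 0.0554) or control P6 library 2 (1.61, 0.0724). Here too endothelial markers moved along, with 4 of 10 tested higher and 0 lower. Per endothelial marker UMI Flt1 had medians of 0.0528, 0.0646 and 0.0249 in KO P10, control P10 and control P6, below the 0.103, 0.0996 and 0.0643 of endothelial-like nuclei. The part of endothelial RNA in this change was not tested.

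The steadiest difference between knockouts and controls was in the co-receptor Nrp1 of cardiomyocyte-like nuclei, the 1 knockout call within a class that passed under every alternative tried. The gene lies on chromosome 8 from 128358604 to 128503363 on the plus strand, and overlaps the microRNA gene Mir1903 on the same strand. It had 383, 278 and 295 CPM at KO P10, 1075, 905 and 812 CPM in control P10 and 730.2, 1005 and 752 CPM at control P6, from 311 to 1721 UMIs a library. Every knockout library lay below every control library by a wide margin, while the control groups overlapped. The log2 change for KO P10 against control P10 was −1.54 ± 0.25 (SE, adjusted p = 0.00133, edgeR), and it ran from −1.72 to −1.43 over the 17 alternatives. Control P10 against control P6 gave 0.17 ± 0.25 (adjusted p = 0.671). RNA of red blood cells moved with the knockouts in all 4 classes: of the 6 erythroid markers 4 rose and 0 fell in each class, and they took 0.289% to 1.01% of cardiomyocyte-like UMIs at KO P10 (the most in library 2) against 0.126% to 0.230% at control P10. Ribosomal protein genes took 0.489% to 0.854% of cardiomyocyte-like UMIs at KO P10, against 0.150% to 0.367% at control P10, and their mean share was higher at KO P10 in the other 3 classes too. Malat1, a nuclear RNA, took 2.95% to 5.30% of fibroblast-like UMIs at KO P10 against 6.43% to 7.83% at control P10, and 2.77% to 4.71% against 6.15% to 6.56% in endothelial-like nuclei. The part of any of these in the knockout differences was not tested.

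The Nrp1 difference was present inside the clusters as well as across them. Within cluster 6 Nrp1 had 413, 245 and 246 CPM at KO P10, 899.5, 929.5 and 779 CPM in control P10 and 678, 1051 and 826 CPM at control P6. Within cluster 7 it had 422, 207 and 298 CPM at KO P10, 891, 933 and 763 CPM in control P10 and 790.1, 937 and 938 CPM at control P6. In both clusters every knockout library lay below every control library. The Xist-high P10 libraries had 383 CPM (KO P10 library 1) and 1075 CPM (control P10 library 1), and the Y-high ones 278 and 295 CPM (KO P10) against 905 and 812 CPM (control P10). The difference had the same direction in both sets. The Xist-high set held 1 library a group, and KO P10 library 2, counted as Y-high, also had 889 Xist UMIs. The part of sex in the difference was not tested. With nuclei thinned to 500 UMIs, 447 of 3175 cardiomyocyte-like nuclei had a Nrp1 UMI at KO P10, 14.1% (95% exact binomial interval 12.9% to 15.3%). At control P10 it was 1291 of 3804, 33.9% (32.4% to 35.5%), and at control P6 1076 of 3511, 30.6% (29.1% to 32.2%). These intervals cover counting error only, and before thinning the shares were 25.2%, 56.0% and 47.7%. Per endothelial marker UMI, cardiomyocyte-like nuclei had 0.459 to 0.805 Nrp1 UMIs at KO P10, 1.03 to 2.25 at control P10 and 1.78 to 2.495 at control P6. All of these were above the range of endothelial-like nuclei (0.0489 to 0.229 over the 9 libraries).

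The sequences before the RefSeq starts of both co-receptor genes are shown because transcripts of both were fewer in knockout nuclei, and because ERRα and ERRγ are known to bind the extended half-site AAGGTCA. Both come from the RefSeq promoter table for GRCm38.p6, at chr8:128358823-128359072 for Nrp1 and chr1:62703067-62703284 for Nrp2, on the plus strand and ending at the base before the start that this table uses. The Nrp1 window lies within the GENCODE span given above, whose first base is that of a transcript with a retained intron. It falls in an intron of that transcript and upstream of the GENCODE start of the protein-coding one. Capitals mark the match to AAGGTCA, read on the opposite strand.
Nrp1: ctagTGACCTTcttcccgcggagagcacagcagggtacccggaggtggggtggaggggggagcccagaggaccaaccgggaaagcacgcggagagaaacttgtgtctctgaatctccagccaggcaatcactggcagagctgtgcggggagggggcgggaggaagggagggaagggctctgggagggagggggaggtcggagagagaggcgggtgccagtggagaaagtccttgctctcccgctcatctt
Nrp2: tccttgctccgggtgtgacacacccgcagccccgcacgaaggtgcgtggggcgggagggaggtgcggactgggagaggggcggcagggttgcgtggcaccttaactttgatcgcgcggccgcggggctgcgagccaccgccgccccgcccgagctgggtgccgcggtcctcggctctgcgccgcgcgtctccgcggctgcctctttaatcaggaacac
The Nrp1 window held 1 such match, 246 bases before the RefSeq start, and the Nrp2 window 0. The windows of 8 of the 10 genes were searched on both strands. Besides AAGGTCA, the letters searched were the full ERR site TCAAGGTCA, which contains it, the core ACGTG of the hypoxia response element, the ETS factor core CCGGAA, and the forkhead factor motif TGTTTAC. The ERR half-site was found in the Nrp1 window alone, the ETS core in that of Kdr and the hypoxia core at a second start of Vegfa. Over 32851 RefSeq windows the half-site occurred in 4.08%, the full ERR site in 0.387%, the hypoxia core in 16.6%, the ETS core in 12.0% and the forkhead motif in 3.17%, and a match describes the letters of a window and no more. None of these data measure binding.

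In the other classes the Nrp1 difference between knockouts and controls did not pass. Endothelial-like nuclei had 623, 877 and 797 CPM at KO P10, 1188, 1283 and 1279 CPM in control P10 and 975.4, 1018 and 756 CPM at control P6. KO P10 and control P10 stood apart, but the log2 difference of −0.71 ± 0.29 (SE) did not pass (adjusted p = 0.188, edgeR). Fibroblast-like nuclei had 446, 417 and 466 CPM at KO P10, 528, 555 and 614 CPM in control P10 and 493, 339 and 269 CPM at control P6, a difference of −0.35 ± 0.26 (adjusted p = 0.573) for the knockouts, again with no overlap. Endocardial-like nuclei had 1498, 2195 and 2370 CPM at KO P10, above the 1326, 1393 and 1066 CPM of control P10 and, but for 1 library, the 789, 1514 and 1212 CPM of control P6. That difference was 0.68 ± 0.31 (adjusted p = 0.411). The knockout change of Nrp1 was higher in fibroblast-like than in cardiomyocyte-like nuclei by 1.17 ± 0.23 on the log2 scale (adjusted p = 0.000596, interaction), and higher in endocardial-like than in endothelial-like nuclei by 1.38 ± 0.25 (adjusted p = 0.000457). The change in endothelial-like minus that in cardiomyocyte-like nuclei, 0.75 ± 0.23, did not pass over all genes (unadjusted p = 0.000911, adjusted p = 0.133). In these 3 contrasts 2.29%, 0.453% and 0.419% of all genes were called. Cardiomyocyte markers took 3.68% of endothelial-like UMIs at KO P10 and 3.18% at control P10. They took 2.25% and 1.49% of fibroblast-like and 2.13% and 1.65% of endocardial-like UMIs, against 5.48% and 5.65% of cardiomyocyte-like UMIs. The part of cardiomyocyte RNA in the Nrp1 differences of the other classes was not tested.

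Nrp2 fell in 3 of the 4 classes of knockouts, at low counts in cardiomyocyte-like and fibroblast-like nuclei. In endothelial-like nuclei it had 271, 224 and 199 CPM at KO P10, 471, 445 and 559 CPM in control P10 and 654, 564 and 463 CPM at control P6. All knockout libraries lay below all control libraries. The log2 change for KO P10 against control P10 was −1.10 ± 0.29 (SE, adjusted p = 0.0315, edgeR), the 1 call among the 9 genes tested where 1.48% of all genes fell, 2.38% rose and 3.86% were called. It was lost without KO P10 library 2 (−1.10, adjusted p = 0.105) or 3 (−0.999, 0.175) or control P10 library 3 (−1.001, 0.207). Nrp2 was read relative to endothelial markers as well, with 0.0247 to 0.0486 UMIs per marker UMI at KO P10 and 0.0533 to 0.0905 at control P10, which did not overlap. Thinned to 500 UMIs, 10.6%, 19.6% and 22.01% of endothelial-like nuclei had a Nrp2 UMI at KO P10, control P10 and control P6 (15.7%, 35.2% and 36.5% before thinning), against 0.787%, 1.498% and 0.684% of cardiomyocyte-like nuclei.

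In cardiomyocyte-like nuclei Nrp2 had 21.6, 6.75 and 9.49 CPM at KO P10, 35.7, 22.6 and 38.2 CPM in control P10 and 18.1, 9.85 and 18.7 CPM at control P6, from 9 to 66 UMIs a library. The knockout libraries lay below those of control P10, but among those of control P6. The log2 change was −1.34 ± 0.40 (SE, adjusted p = 0.0388, edgeR), and it was lost without KO P10 library 2 (−1.01, adjusted p = 0.125) or 3 (−1.201, 0.134) or control P10 library 1 (−1.28, 0.0756) or 3 (−1.17, 0.175). In fibroblast-like nuclei it had 35.7, 25.2 and 20.8 CPM at KO P10, 78.7, 51.9 and 96.4 CPM in control P10 and 52.1, 23.2 and 39.2 CPM at control P6. There the change was −1.42 ± 0.37 (adjusted p = 0.0348), 1 of 2 calls among the 10 genes, both lower, where 1.57% of all genes fell, 2.13% rose and 3.7% were called in either direction. It was lost without KO P10 library 2 (−1.36, adjusted p = 0.0806) or 3 (−1.23, 0.189) or control P10 library 1 (−1.40, 0.0956) or 3 (−1.15, 0.269). In endocardial-like nuclei the difference was −1.40 ± 0.44 (adjusted p = 0.153), with 105, 36.2 and 35.2 CPM at KO P10 against 174, 199 and 94.8 CPM at control P10, and it passed without KO P10 library 1 (−2.13, adjusted p = 0.0177). Against control P6, Nrp2 of control P10 was not past the threshold in any class. Per endothelial marker UMI, cardiomyocyte-like nuclei had 0.0111 to 0.04545 Nrp2 UMIs at KO P10 and 0.0337 to 0.07485 at control P10. Fibroblast-like nuclei had 0.0121 to 0.0290 and 0.0348 to 0.0528, against 0.0247 to 0.0486 and 0.0533 to 0.0905 in endothelial-like nuclei. The part of endothelial RNA in the Nrp2 falls of cardiomyocyte-like and fibroblast-like nuclei was not tested.

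**Figure D3:**
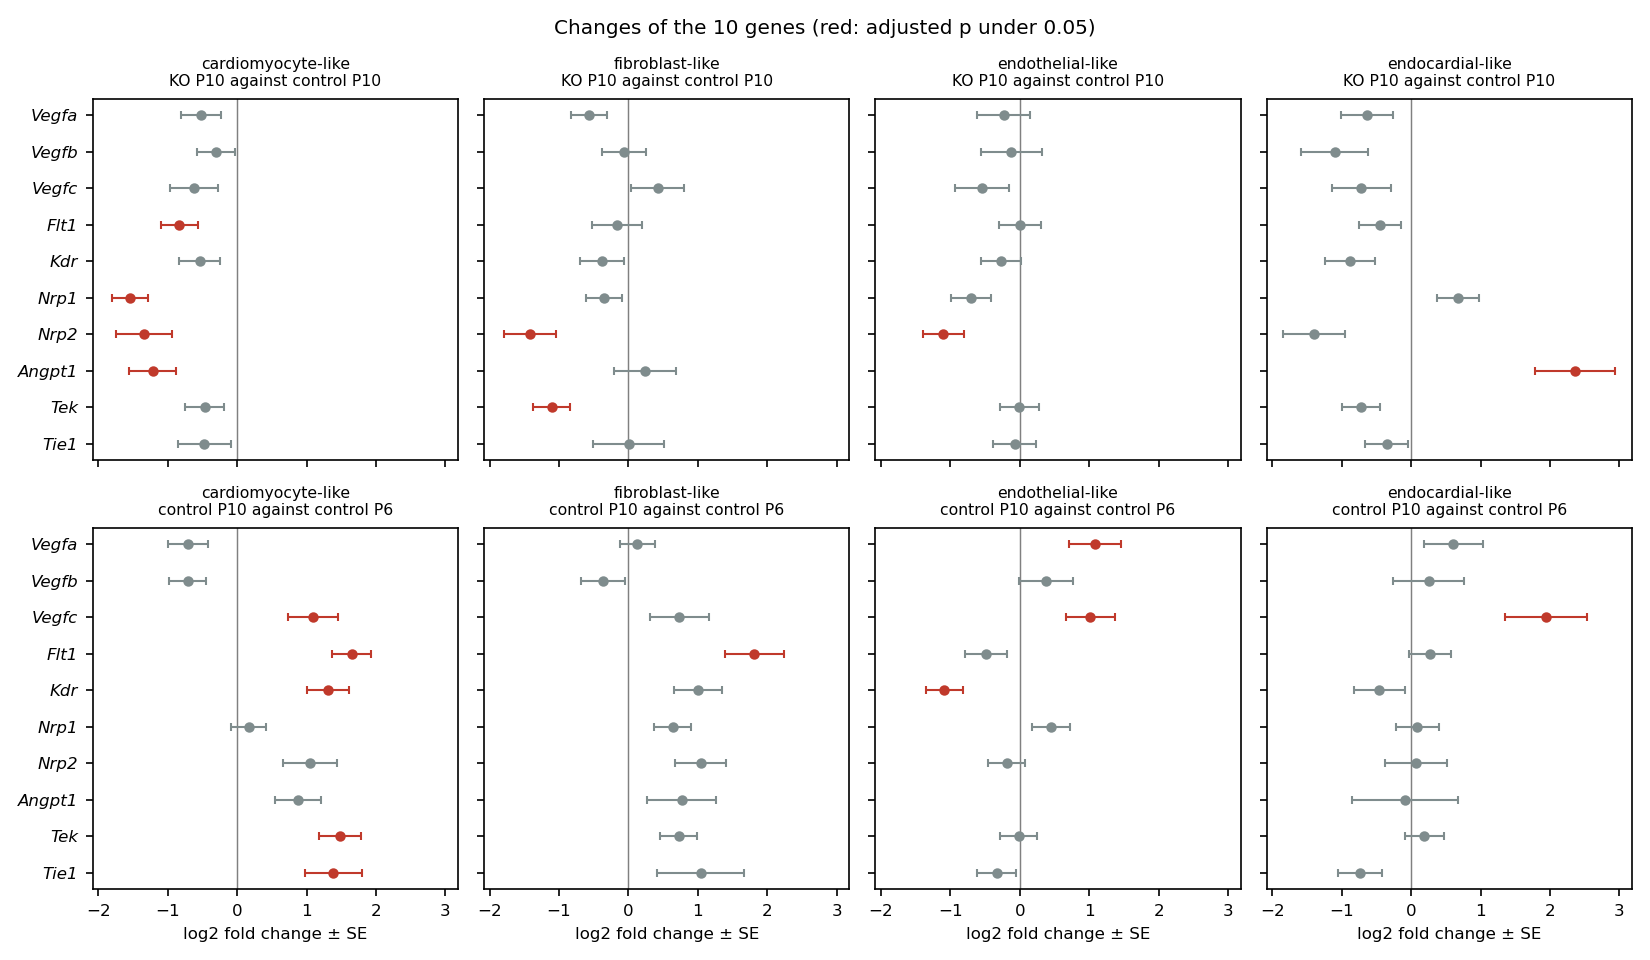
Log2 fold change with its SE for the 10 genes in the 4 classes, KO P10 against control P10 in the upper row and control P10 against control P6 in the lower row, with adjusted p under 0.05 in red. Nrp2 is below 0 in all 4 classes of the upper row (−1.42 to −1.10), Nrp1 runs from −1.54 in cardiomyocyte-like to 0.68 in endocardial-like nuclei, and Angpt1 of endothelial-like nuclei was too low to be tested.

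Angpt1, the ligand of TIE2, fell in cardiomyocyte-like nuclei of knockouts and rose in their endocardial-like nuclei. The gene lies on chromosome 15 from 42424723 to 42676977 on the minus strand and overlaps the antisense gene Gm17473. In cardiomyocyte-like nuclei it had 43.3, 42.8 and 31.3 CPM at KO P10, 129.9, 52.0 and 98.4 CPM in control P10 and 75.5, 32.0 and 44.4 CPM at control P6. KO P10 and control P10 stood apart, and the control P6 libraries lay among both. The log2 change for KO P10 against control P10 was −1.22 ± 0.34 (SE, adjusted p = 0.0294, edgeR). It was lost without KO P10 library 3 (−1.10, adjusted p = 0.116) or control P10 library 1 (−0.94, 0.0991) or 3 (−1.16, 0.110).

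In endocardial-like nuclei Angpt1 had 71.5, 710.4 and 457 CPM in KO P10 libraries 1, 2 and 3, from 15, 157 and 65 UMIs. Control P10 had 67.0, 54.3 and 130.3 CPM, from 5, 9 and 11 UMIs, and control P6 had 107, 48.3 and 124 CPM. KO P10 libraries 2 and 3 were above all controls, whereas library 1 lay among them. The log2 change was 2.36 ± 0.58 (SE, adjusted p = 0.0448, edgeR), 1 call of 10 genes where 0.783% of all genes rose, 0.447% fell and 1.23% were called. It was lost without KO P10 library 2 (1.68, adjusted p = 0.282) or 3 (2.27, 0.164) and without control P10 library 1 (2.27, 0.0693), 2 (2.05, 0.143) or 3 (2.82, 0.138). Among Xist-high libraries the values were 71.5 CPM (KO P10 library 1) and 67.0 CPM (control P10 library 1), and among Y-high ones 710.4 and 457 CPM (KO P10) against 54.3 and 130.3 CPM (control P10). Thinned to 500 UMIs, 2.09%, 18.9% and 11.6% of endocardial-like nuclei of the KO P10 libraries had an Angpt1 UMI, and 3.80% of those of control P10. In fibroblast-like nuclei Angpt1 had 50.5, 204.9 and 57.7 CPM at KO P10, with library 2 again the highest, against 87.9, 66.3 and 98.4 CPM at control P10 (0.24 ± 0.45, adjusted p = 0.871). Endocardial-like and endothelial-like changes differed by 3.08 ± 0.61 (adjusted p = 0.00180), and fibroblast-like and cardiomyocyte-like changes by 1.27 ± 0.33 (adjusted p = 0.0175). Without KO P10 library 2 these were 2.63 (adjusted p = 0.140) and 0.53 (0.658), and the fibroblast-like contrast also failed without control P10 library 1 (1.10, 0.0867) or 3 (1.28, 0.0607).

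Tek, which encodes TIE2, fell in fibroblast-like nuclei of knockouts. The gene lies on chromosome 4 from 94739289 to 94874976 on the plus strand, and fibroblast-like nuclei held 15.4% to 34.5% of its UMIs by library, a median of 28.2%. They had 223, 191 and 201 CPM at KO P10, 495, 391.9 and 445 CPM in control P10 and 369.7, 248.6 and 196 CPM at control P6, from 53 to 272 UMIs a library. Every KO P10 library lay below every control P10 library, and control P6 lay below control P10 and overlapped KO P10. The log2 change for KO P10 against control P10 was −1.10 ± 0.26 (SE, adjusted p = 0.0212, edgeR). It was lost without KO P10 library 2 (−1.05, adjusted p = 0.0668) or 3 (−1.08, 0.110) or control P10 library 1 (−1.03, 0.0864) or 3 (−1.09, 0.111). Per endothelial marker UMI fibroblast-like nuclei had 0.0918 to 0.181 Tek UMIs at KO P10, 0.243 to 0.332 at control P10 and 0.247 to 0.307 at control P6, against 0.0226 to 0.0724 in endothelial-like nuclei. Endocardial-like nuclei had 0.0884 to 0.114 at KO P10, 0.136 to 0.183 at control P10 and 0.104 to 0.154 at control P6. The fibroblast-like and endocardial-like ranges overlapped at KO P10 but not in the control groups. Thinned to 500 UMIs, 8.89%, 17.6% and 11.1% of fibroblast-like nuclei had a Tek UMI at KO P10, control P10 and control P6 (13.1%, 27.2% and 17.1% before thinning), against 1.42%, 2.18% and 0.684% of cardiomyocyte-like nuclei. Tie1 in the same nuclei had 37.8, 35.95 and 4.62 CPM at KO P10 and 32.4, 20.2 and 27.5 CPM at control P10, a difference of 0.0066 ± 0.51 (adjusted p = 0.999).

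**Figure D4:**
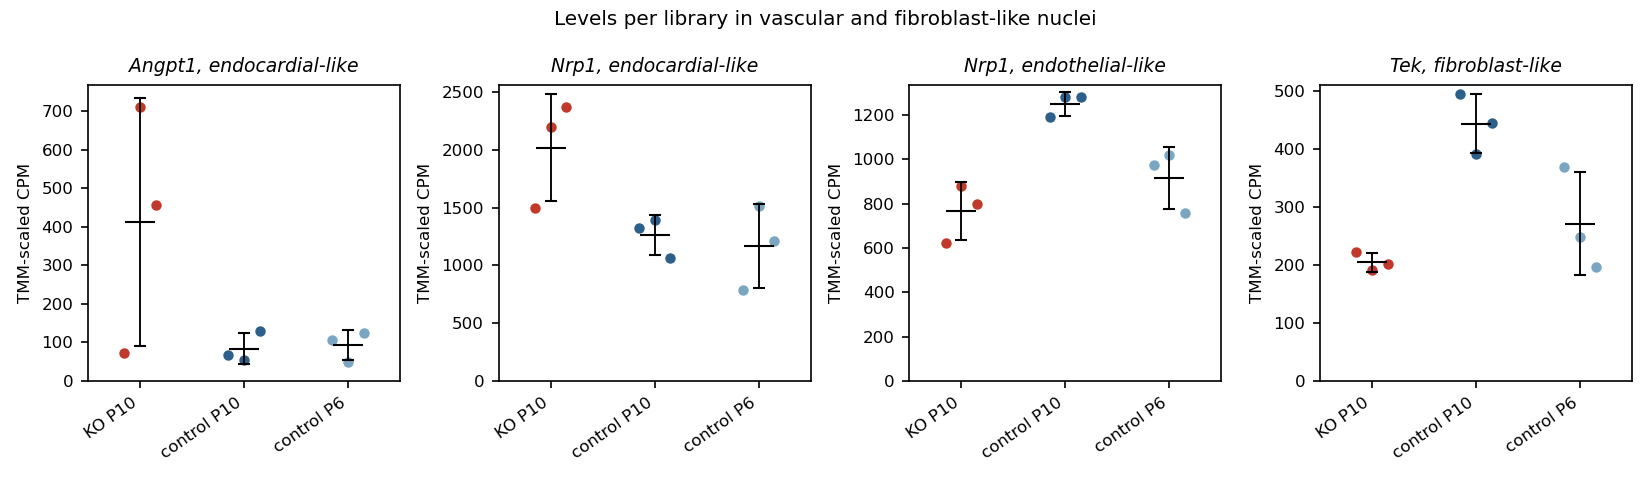
Level (TMM-scaled CPM, axis from 0) of Angpt1 and Nrp1 in endocardial-like, Nrp1 in endothelial-like and Tek in fibroblast-like nuclei, 1 point per library, with mean and SD bars for KO P10, control P10 and control P6. Angpt1 of KO P10 ranges from 71.5 to 710.4 CPM, and the KO P10 points of Nrp1 in endothelial-like and of Tek in fibroblast-like nuclei lie below those of control P10.

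**Figure D5:**
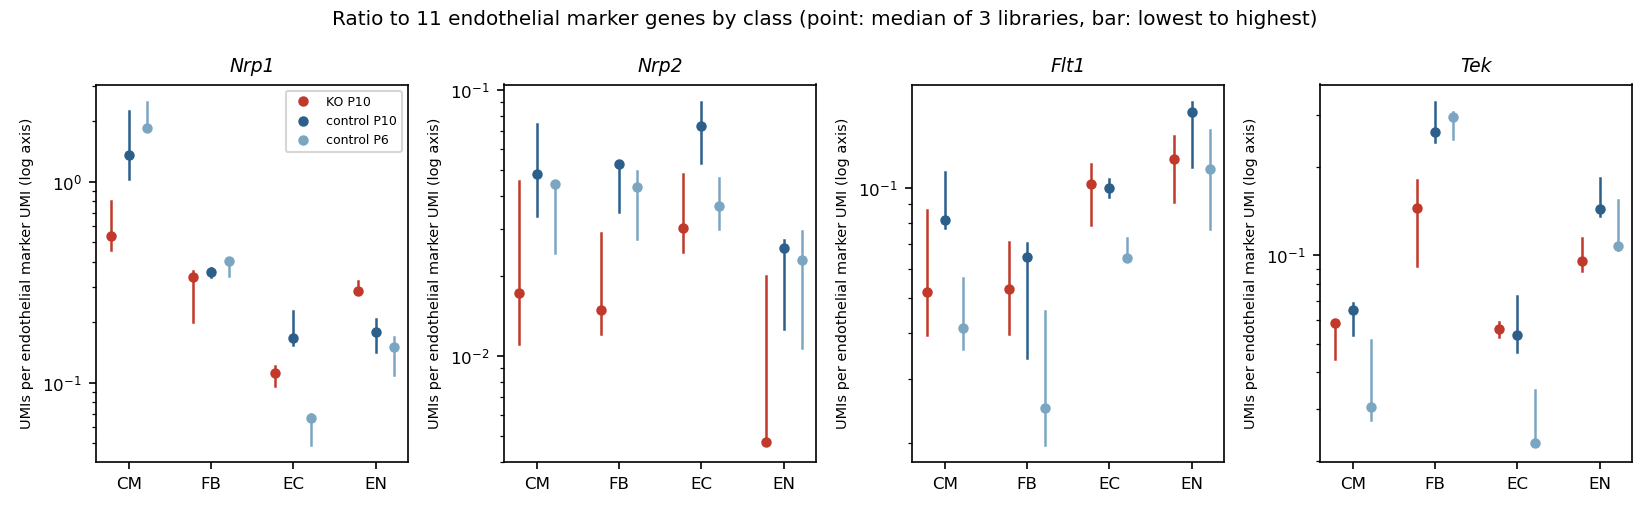
UMIs of Nrp1, Nrp2, Flt1 and Tek per UMI of 11 endothelial markers (log axis) in each class, with the median of the 3 libraries of KO P10, control P10 and control P6 as a point and the lowest to the highest library as a bar. Nrp1 in cardiomyocyte-like nuclei (medians 0.535, 1.35 and 1.84) and Tek in fibroblast-like nuclei (0.144, 0.263 and 0.296) lie above their endothelial-like ratios, whereas Flt1 in cardiomyocyte-like nuclei (0.0519, 0.0816 and 0.0413) lies at or below its ratio there.

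Age changes differed between endothelial-like and cardiomyocyte-like nuclei for 7 of the 10 genes, in a contrast with 9.16% of all genes called. The endothelial-like minus the cardiomyocyte-like log2 change of control P10 against control P6 was −2.24 ± 0.30 for Kdr (SE, adjusted p = 2.59e-11, edgeR interaction), −1.97 ± 0.28 for Flt1 (2.81e-10), −1.55 ± 0.37 for Tie1 (0.00106), −1.34 ± 0.30 for Tek (0.000391) and −1.04 ± 0.30 for Nrp2 (0.0101). It was 1.86 for Vegfa, given above, and 1.10 ± 0.33 for Vegfb (0.0151). The 4 kinases and Nrp2 thus had the lower change in endothelial-like nuclei, and Vegfa and Vegfb the higher one. The Vegfb value failed without any 1 of control P10 libraries 1 (0.80, adjusted p = 0.152), 2 (1.197, 0.0692) and 3 (0.92, 0.246) or control P6 libraries 1 (0.97, 0.0974) and 3 (0.96, 0.0996), and Nrp2 failed without control P10 library 3 (−1.13, 0.0502) or control P6 library 2 (−0.76, 0.194). Some RNA of other classes moved with these differences: cardiomyocyte markers took 3.18% of endothelial-like UMIs at control P10 and 0.935% at control P6, and 6 endothelial markers rose in cardiomyocyte-like nuclei. Its part in these differences was not tested. Vegfa also differed in age change between fibroblast-like and cardiomyocyte-like nuclei, where 2.34% of all genes were called, and 0 of the 10 genes did between endocardial-like and endothelial-like nuclei, where 0.906% were called.

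Other genes of the pathway were read from 4 lists of other ligands and receptors (22 names), signal transduction (33), tip and stalk cell and target genes (33) and regulators of Vegfa (19). In cardiomyocyte-like nuclei of knockouts 2 of 13 other ligands and receptors tested fell, the semaphorin receptor Plxna4 (−1.41 ± 0.27, adjusted p = 0.00340, edgeR) and the class 3 semaphorin Sema3c (−1.13 ± 0.31, 0.0274), and 1 rose, the integrin subunit Itgb1 (0.85 ± 0.23, 0.0235). The median of that list was 0.0069, against 0.011 over all genes tested. Of 31 signal transduction genes 2 fell, the adaptors Grb14 (−1.51) and Nck1 (−0.91), and 1 rose, the GTPase Cdc42 (0.78), with a median of −0.18. Of 16 tip and stalk cell genes the endothelial transcription factors Ets1 (−1.26) and Erg (−1.16) fell and the lipase inhibitor Angptl4 rose (1.34), with a median of −0.056. The 11 endothelial markers had a median of −0.39 in the same nuclei, with 1 called lower and 0 higher. The part of endothelial RNA in the Ets1 and Erg values was not tested. Of 16 regulators of Vegfa 4 fell, led by the deleted Esrra (−2.31 ± 0.31, 0.000319) and Esrrg (−1.09 ± 0.28, 0.0181), and 1 rose, the hypoxia-inducible factor Hif1a (1.12 ± 0.24, adjusted p = 0.00746), with a median of −0.12. These shares stand beside the 12.8% of all genes called.

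In the other classes of knockouts fewer pathway genes were called, as were fewer of all genes (3.7% in fibroblast-like, 3.86% in endothelial-like and 1.23% in endocardial-like nuclei). In fibroblast-like nuclei Sema3c fell (−2.03 ± 0.32, adjusted p = 0.00141, edgeR), but it is among the leading genes of the fibroblast-like cluster and no independent result there, and the ERBB ligand Nrg1 rose (1.73 ± 0.36, 0.00765) among 13, Calcrl, a receptor for adrenomedullin, fell (−1.05) among 30, and Angptl4 (1.82) and the netrin receptor Unc5b (1.39) rose among 16. The medians of these lists were 0.098, −0.11 and −0.24. Nrg1 is a leading gene of the endocardial-like cluster. Of 5 endocardial markers tested in fibroblast-like nuclei 2 rose and 0 fell in knockouts, with a median of 0.88. The part of endocardial RNA in the fibroblast-like Nrg1 rise was not tested. Of 15 regulators Esrra (−3.41) and Esrrg (−1.26) fell and 0 rose, with a median of 0.0060. In endothelial-like nuclei 0 of 12 and 0 of 23 genes passed among other ligands and receptors and tip and stalk cell genes, Grb14 fell (−1.31) among 29, and Esrra (−3.34) and Esrrg (−1.40) fell among 14 regulators. The part of cardiomyocyte RNA in the Esrra and Esrrg values of fibroblast-like and endothelial-like nuclei was not tested. In endocardial-like nuclei Nrg1 rose (2.23 ± 0.39, adjusted p = 0.00472), but it leads the genes that define an endocardial-like cluster and is no independent result there, and Ets1 fell (−1.53 ± 0.37, 0.0436), with 0 called of 27 signal transduction genes and of 12 regulators.

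With age, most tested genes of the tip and stalk cell and target list fell in endothelial-like nuclei. Of 23 tip and stalk cell and target genes tested 13 fell and 1 rose in control P10 against control P6, with a median log2 change of −0.87 against −0.0028 over all genes, where 13.7% fell. The list is mixed: those that fell include Klf2 and Klf4, known from endothelium under steady flow, beside the sprouting genes Apln and Dll4. The summed endothelial markers, which did not all fall, took 0.609% of these UMIs at control P10 and 1.35% at control P6. Cardiomyocyte markers took 3.18% and 0.935%. The part of either in the list's fall was not tested. The peptide Apln fell by 2.21 ± 0.35 (SE, adjusted p = 2.93e-05, edgeR), the Notch ligand Dll4 by 1.67 ± 0.40 (0.00231) and the basement membrane protein Nid2 by 1.67 ± 0.32 (0.000274). Among 12 other ligands and receptors 3 fell and 2 rose, led by Sema3c (1.96), the semaphorin receptor Plxnd1 (−1.28) and the pericyte-recruiting ligand Pdgfb (−1.18). Among 14 regulators of Vegfa 6 rose and 0 fell, led by the coactivators Ppargc1a (2.54 ± 0.43, 7.61e-05) and Ppargc1b (2.25 ± 0.34, 2.38e-05) and by Esrrg (2.46 ± 0.28, 1.05e-06). Those 3 are abundant in cardiomyocytes, whose markers rose in these nuclei too, and the part of that RNA was not tested. Of 29 signal transduction genes 5 rose and 3 fell, led by Grb14 (2.52), the kinase Prkca (1.89) and Mapk3 (−1.23).

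In cardiomyocyte-like nuclei the age comparison had 5 of 13 other ligands and receptors higher and 0 lower, with a median of 0.79 against −0.039 over all genes, of which 8.48% rose and 9.17% fell. Of the 11 endothelial markers 6 rose in these nuclei too, and Ptprb and Calcrl are known from endothelium. The part of that RNA was not tested. The endothelial phosphatase Ptprb, which acts on TIE2, rose by 2.10 ± 0.26 (SE, adjusted p = 0.000216, edgeR), Sema3c by 1.44 ± 0.32 (0.00643) and Plxna4 by 1.18 ± 0.26 (0.00679). Of 31 signal transduction genes 8 rose and 0 fell, led by Foxo1 (1.69), Vav3 (1.69) and Calcrl (1.43). Among 16 tip and stalk cell and target genes 4 rose and 2 fell, with the Notch target Hey2 at −1.82 ± 0.30 (0.00140). Of 16 regulators 3 rose, the prolyl hydroxylases Egln3 (1.72) and Egln1 (0.96) and Esrrg (1.36), and 1 fell. In fibroblast-like nuclei 2 of 13, 5 of 30, 1 of 16 and 3 of 15 genes of the 4 lists rose and 0, 0, 2 and 0 fell, where 6.47% of all genes rose and 6.52% fell. In endocardial-like nuclei 1 of 10, 2 of 27, 0 of 16 and 1 of 12 rose and 0 fell, where 4.49% of all genes rose and 4.2% fell.

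Over all barcodes of a library, whatever the nucleus and without the mitochondrial genes, the fall of both neuropilins was still visible. These sums include the barcodes that KO P10 library 2 shared with library 1. Nrp1 had 499.6, 476 and 451 CPM at KO P10, 762, 726 and 744 CPM in control P10 and 569, 649.8 and 513 CPM at control P6. Nrp2 had 65.1, 34.9 and 27.4 CPM at KO P10, 109, 81.7 and 125 CPM in control P10 and 133.5, 57.6 and 64.0 CPM at control P6. KO P10 lay below control P10 for both genes. In such whole-library sums fewer cells of a type and less RNA per cell cannot be told apart. Endothelial-like nuclei were 2.61%, 5.05% and 4.98% of kept nuclei at KO P10 and 4.61%, 8.85% and 11.2% at control P10. Endocardial-like nuclei were 5.53%, 9.86% and 6.82% at KO P10 and 4.15%, 4.97% and 3.00% at control P10. The part of these shares in the whole-library values was not tested. The log2 changes were −0.65 ± 0.20 for Nrp1 (SE, adjusted p = 0.0386, edgeR) and −1.30 ± 0.34 for Nrp2 (0.0186), 2 calls of 10 where 6.86% of all genes fell, 9.47% rose and 16.3% were called. With the shared barcodes left out, 1 call remained among the 10 genes. Without any 1 of the 6 libraries of that comparison the Nrp1 value was −0.70 to −0.62 with an adjusted p of 0.0614 to 0.126. Nrp2 was lost without KO P10 library 2 (−1.16, adjusted p = 0.0586) or 3 (−1.08, 0.0773) or control P10 library 3 (−1.18, 0.0872). With age Vegfc rose by 1.02 ± 0.30 (adjusted p = 0.0213), 1 call of 10 where 10.8% of all genes rose, 13.1% fell and 23.9% were called, and it was lost without control P10 library 3 (0.82, 0.0916) or control P6 library 2 (0.92, 0.0959) or 3 (0.81, 0.105).

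The genes whose pattern was most like each of the 10 were found by Pearson correlation of log2 CPM over the 36 sums of 4 classes and 9 libraries, among 9588 genes. Sums of a library share its depth and preparation, so these values are descriptions. Flt1 and Tie1 were nearest to the endothelial adhesion molecule Pecam1 (r = 0.982 and 0.966), Kdr to the caveolar protein Cav1 (0.954), Nrp2 to the KIT ligand Kitl (0.949) and Tek to the TGF-β receptor Tgfbr2 (0.951). Vegfa was nearest to Rmdn1 (0.891), followed by the muscle kinase Dmpk (0.860) and the mitochondrial carrier Slc25a12 (0.838). Nrp1 was nearest to the semaphorin receptor Plxna4 (0.753), Angpt1 to the growth hormone receptor Ghr (0.789), Vegfc to the kinase Cdk19 (0.898) and Vegfb to the lipid droplet protein Fitm1 (0.729). Among the 10 genes themselves Flt1 and Tie1 (0.959) and Kdr and Nrp2 (0.943) were most alike, and Vegfa and Tek (−0.819) least.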

How the data were processed

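The deposited files were UMI count tables, 1 per library, with a row for each gene and a column for each barcode. Per the submitters' processing notes, reads were aligned with STAR 2.5.2a to the mm10 genome. The counting tool and the annotation are not given in the sources used here. Whether counting used strand is likewise not given, so reads of Nrp2 and Angpt1 cannot be told apart from those of their antisense neighbours.

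Mitochondrial genes were removed before the UMI minimum, the clustering, the sums and the CPM. Barcodes under 500 UMIs (5897) were left out, and so were 464 barcodes that KO P10 library 2 shared with library 1 and the 5% per library (1328) scored highest as doublets by Scrublet. Nuclei were scaled to 1000 UMIs, and 2000 variable genes, none of the 10 among them, gave 30 principal components, 15 neighbours and 14 clusters at resolution 1 (scanpy 1.11.5, scikit-learn 1.9.0, igraph 0.11.9). A cluster was named "X-like" from at least 3 markers at 1.5-fold over the clusters of other classes. Clusters whose Malat1, a nuclear RNA, was under 40% of the median cluster stayed unnamed, as did those with a rival class, and in all 5992 nuclei were unnamed. The shared-barcode step, the Malat1 limit and the reference for the marker folds were set after seeing the data. Raw counts were summed per library and class for the 4 classes with at least 50 nuclei in every library, and over all barcodes. The sums were tested with edgeR 4.0.16 (R 4.3.3, quasi-likelihood F test, group as the 1 term, TMM, filterByExpr, all 9 libraries, Benjamini-Hochberg adjustment over all genes tested, threshold 0.05). SEs are the log2 change divided by the root of F. Differences of change between classes were tested in 1 fit over both classes with the library as a block. Thinning drew 500 UMIs per nucleus. The scripts were tested on simulated data.

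The text names the 10 genes throughout, at most 3 called genes per pathway list, class and comparison by size of change, and 3 most similar genes per member. The 10 genes, the lists, the motifs and the tests were chosen with earlier results of these data known. The alternatives were no count filter, DESeq2 1.42.0, RLE factors, a replicate block, each library left out, only the 2 groups compared, 750 UMIs, doublets kept, Malat1-poor clusters kept, shared barcodes kept or left out, the 10 genes allowed into the clustering, and classes by marker UMIs. RefSeq promoter sequences (GRCm38.p6) and GENCODE spans (GRCm38) were used, and no promoter is shown for Angpt1 and Tie1. Unpaired library numbers were not used as blocks in the main tests.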

Additional observations from a re-analysis of the deposited data

Results flagged for a closer look

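A change that differs between 2 classes of nuclei under the same comparison is listed here where the test of that difference passed after adjustment over all genes (edgeR quasi-likelihood interaction, library as a block). For control P10 against control P6, 7 genes differed between endothelial-like and cardiomyocyte-like nuclei, in the direction endothelial-like minus cardiomyocyte-like on the log2 scale. The values were 1.86 for Vegfa (adjusted p = 9.17e-09), 1.10 for Vegfb (0.0151), −1.97 for Flt1 (2.81e-10), −2.24 for Kdr (2.59e-11), −1.04 for Nrp2 (0.0101), −1.34 for Tek (0.000391) and −1.55 for Tie1 (0.00106). In the same comparison Vegfa differed between fibroblast-like and cardiomyocyte-like nuclei by 0.96 (adjusted p = 0.0217), where 2.34% of all genes were called. That value was lost without control P10 library 3 (0.99, adjusted p = 0.0985) or control P6 library 2 (1.02, 0.0696) or 3 (0.89, 0.144).

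For KO P10 against control P10, fibroblast-like minus cardiomyocyte-like changes were 1.17 for Nrp1 (adjusted p = 0.000596) and 1.27 for Angpt1 (0.0175). Endocardial-like minus endothelial-like changes were 1.38 for Nrp1 (adjusted p = 0.000457) and 3.08 for Angpt1 (0.00180). Both Angpt1 calls were lost without KO P10 library 2, with values of 0.53 (adjusted p = 0.658) and 2.63 (0.140), and the fibroblast-like one also without control P10 library 1 (1.10, 0.0867) or 3 (1.28, 0.0607). Between endothelial-like and cardiomyocyte-like nuclei 0 of the 10 genes passed for KO P10 against control P10 by edgeR, with 2 under an unadjusted 0.05 by the same edgeR model (Flt1, 0.00668, and Nrp1, 0.000911). Between endocardial-like and endothelial-like nuclei 0 passed for control P10 against control P6, again with 2 under an unadjusted 0.05 (Flt1, 0.00191, and Angpt1, 0.0386). Groups of 3 libraries are too small to look for single libraries that stand apart by this kind of rule.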

How the results depend on the processing

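Of the 33 values of the 10 genes that passed the test, 10 passed under every alternative tried for them and 0 changed sign, and of the 125 that did not pass, 19 passed under some alternative. In cardiomyocyte-like nuclei 4 genes were called for KO P10 against control P10, and 2 with doublets kept, with Malat1-poor clusters kept or with only the 2 groups compared, and 1 to 4 with 1 library left out. For control P10 against control P6 there were 5, with 9 under the replicate block, 3 with 750 UMIs as the minimum or Malat1-poor clusters kept, and 2 to 8 with 1 library left out. In fibroblast-like nuclei 2 were called for KO P10 against control P10, with 1 by DESeq2, with 750 UMIs or with classes by marker UMIs, and 0 to 2 with 1 library left out. With age 1 was called there, with 2 at 750 UMIs, 3 with doublets kept, with shared barcodes kept or with the 10 genes allowed into the clustering, and 0 to 4 with 1 library left out. In endothelial-like nuclei the 1 call for KO P10 against control P10 became 0 with 750 UMIs, doublets kept or the 10 genes in the clustering (0 to 1 with 1 library left out), and the 3 with age became 1 by DESeq2 (1 to 3). In endocardial-like nuclei the 1 knockout call became 0 with 750 UMIs, classes by marker UMIs or only the 2 groups (0 to 2), and the 1 age call became 0 with DESeq2, 750 UMIs, doublets kept, classes by marker UMIs, the 10 genes in the clustering, shared barcodes kept or only the 2 groups (0 to 1). Over all barcodes the 2 knockout calls became 1 with no count filter, under the replicate block or with shared barcodes left out (0 to 1), and the 1 age call became 3 with no count filter and 2 by DESeq2 or with only the 2 groups (0 to 3). Between endothelial-like and cardiomyocyte-like nuclei the 0 knockout calls became 1 with RLE factors and 2 with classes by marker UMIs (0 to 2 with 1 library left out). Between fibroblast-like and cardiomyocyte-like nuclei the 2 knockout calls became 1 with classes by marker UMIs (1 to 3), and the 1 age call became 0 with no count filter, RLE factors or classes by marker UMIs (0 to 2). Between endocardial-like and endothelial-like nuclei the 2 knockout calls became 0 with classes by marker UMIs (1 to 2), and the 0 age calls became 0 to 1. The causes of these moves were not tested. Library numbers were shared by the groups, but same-numbered libraries deviated from their group means with correlations of −0.27 to 0.30, so they share only a number and the replicate block is an alternative.

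Counts of called genes over all genes moved more. In cardiomyocyte-like nuclei 1397 genes were called for KO P10 against control P10 (529 to 1667 over the alternatives) and 1925 for control P10 against control P6 (733 to 2512). The counts in the same order were 316 (83 to 443) and 1108 (359 to 1743) in fibroblast-like, 235 (57 to 306) and 1693 (981 to 1902) in endothelial-like and 55 (9 to 103) and 389 (72 to 601) in endocardial-like nuclei, and 2587 (843 to 2970) and 3793 (2022 to 5128) over all barcodes. Depth limits values that rest on under 20 UMIs in a library, which occurred in at least 1 class for each of the 10 genes but Nrp1.

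Values below the threshold in both fits changed sign in 119 cases. With nuclei classed by their own marker UMIs the value was 0.19 for Vegfb in cardiomyocyte-like nuclei (KO P10 against control P10), −0.083 for Angpt1 in fibroblast-like nuclei (KO P10 against control P10), 0.30 for Tek in endothelial-like nuclei (control P10 against control P6) and −0.32 for Vegfa and −0.069 for Nrp1 in endocardial-like nuclei (control P10 against control P6). Under the same setting it was −0.81 for Vegfb and −0.11 for Nrp2 between endothelial-like and cardiomyocyte-like nuclei (KO P10 against control P10), −0.0089 for Vegfa, −0.24 for Vegfb and 0.44 for Nrp2 between fibroblast-like and cardiomyocyte-like nuclei (KO P10 against control P10), −0.34 for Nrp2 and −0.19 for Angpt1 between fibroblast-like and cardiomyocyte-like nuclei (control P10 against control P6) and 0.49 for Vegfa, 0.91 for Vegfc and 0.11 for Tie1 between endocardial-like and endothelial-like nuclei (KO P10 against control P10). Under the same setting it was −0.055 for Tek between endocardial-like and endothelial-like nuclei (control P10 against control P6). With 750 UMIs as the minimum the value was 0.049 for Vegfb and 0.0041 for Kdr in fibroblast-like nuclei (KO P10 against control P10) and −0.092 for Nrp2 and −0.032 for Tek in endocardial-like nuclei (control P10 against control P6). With shared barcodes kept the value was 0.12 for Vegfb and −0.35 for Tie1 in fibroblast-like nuclei (KO P10 against control P10) and 0.0034 for Flt1 and 0.0094 for Tek in endothelial-like nuclei (KO P10 against control P10). With doublets kept the value was −0.021 for Angpt1 and −0.33 for Tie1 in fibroblast-like nuclei (KO P10 against control P10), 0.053 for Tek in endothelial-like nuclei (KO P10 against control P10) and 0.061 for Tek in endothelial-like nuclei (control P10 against control P6). With no count filter the value was −0.0087 for Tie1 in fibroblast-like nuclei (KO P10 against control P10), 0.067 for Angpt1 in endocardial-like nuclei (control P10 against control P6) and 0.0032 for Vegfb and 0.10 for Tie1 over all barcodes (control P10 against control P6). With DESeq2 the value was −0.0073 for Tie1 in fibroblast-like nuclei (KO P10 against control P10), 0.00011 for Flt1 in endothelial-like nuclei (KO P10 against control P10) and −0.024 for Nrp2 in endocardial-like nuclei (control P10 against control P6). With the replicate block the value was −0.19 for Tie1 in fibroblast-like nuclei (KO P10 against control P10) and 0.0067 for Tie1 over all barcodes (control P10 against control P6). With the 10 genes allowed into the clustering the value was −0.077 for Tie1 in fibroblast-like nuclei (KO P10 against control P10) and 0.074 for Tek in endothelial-like nuclei (KO P10 against control P10). With RLE factors the value was 0.00042 for Flt1 in endothelial-like nuclei (KO P10 against control P10) and 0.050 for Vegfc between endothelial-like and cardiomyocyte-like nuclei (KO P10 against control P10). With only the 2 groups the value was 0.021 for Flt1 and 0.025 for Tek in endothelial-like nuclei (KO P10 against control P10) and 0.0077 for Tek in endothelial-like nuclei (control P10 against control P6). With shared barcodes left out the value was 0.0056 for Angpt1 over all barcodes (KO P10 against control P10).

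With 1 library left out, sign changes lay within these ranges, for values that did not pass. In fibroblast-like nuclei, KO P10 against control P10, the range was −0.24 to 0.13 for Vegfb, −0.66 to 0.11 for Flt1, −0.60 to 0.59 for Angpt1 and −0.50 to 0.55 for Tie1. In fibroblast-like nuclei, control P10 against control P6, the range was −0.093 to 0.27 for Vegfa. In endothelial-like nuclei, KO P10 against control P10, the range was −0.98 to 0.14 for Vegfa, −1.33 to 0.30 for Vegfb, −0.40 to 0.19 for Flt1, −0.18 to 0.091 for Tek and −0.42 to 0.16 for Tie1. In endothelial-like nuclei, control P10 against control P6, the range was −0.12 to 0.17 for Tek. In endocardial-like nuclei, KO P10 against control P10, the range was −0.57 to 0.046 for Tie1. In endocardial-like nuclei, control P10 against control P6, the range was −0.12 to 0.94 for Vegfb, −0.12 to 0.31 for Nrp1, −0.31 to 0.30 for Nrp2 and −0.55 to 0.22 for Angpt1. Over all barcodes, KO P10 against control P10, the range was −0.59 to 0.14 for Angpt1. Over all barcodes, control P10 against control P6, the range was −0.23 to 0.085 for Vegfb, −0.33 to 0.086 for Kdr and −0.15 to 0.22 for Tie1. Between endothelial-like and cardiomyocyte-like nuclei, KO P10 against control P10, the range was −0.22 to 0.62 for Vegfa, −0.89 to 0.67 for Vegfb, −0.20 to 0.11 for Vegfc, −0.019 to 0.64 for Kdr, −0.060 to 0.70 for Nrp2 and −0.16 to 1.14 for Tie1. Between endothelial-like and cardiomyocyte-like nuclei, control P10 against control P6, the range was −0.069 to 0.25 for Vegfc. Between fibroblast-like and cardiomyocyte-like nuclei, KO P10 against control P10, the range was −0.23 to 0.23 for Vegfa, −0.39 to 0.18 for Nrp2 and −0.026 to 0.89 for Tie1. Between fibroblast-like and cardiomyocyte-like nuclei, control P10 against control P6, the range was −0.29 to 0.053 for Vegfc, −0.31 to 0.058 for Kdr, −0.065 to 0.32 for Angpt1 and −0.50 to 0.19 for Tie1. Between endocardial-like and endothelial-like nuclei, KO P10 against control P10, the range was −0.95 to 0.22 for Vegfa, −1.46 to 0.16 for Vegfb and −0.56 to 0.0083 for Tie1. Between endocardial-like and endothelial-like nuclei, control P10 against control P6, the range was −0.71 to 0.50 for Vegfa, −0.31 to 0.60 for Vegfb and −0.010 to 0.67 for Nrp2.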

Other observations

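Pericyte-like (456 nuclei) and macrophage-like (148 nuclei) nuclei were too few per library for a test and are given as sums over the libraries of a group, with exact Poisson intervals that cover counting error only. Nrp1 in pericyte-like nuclei had 393 CPM at KO P10 (95% interval 259 to 571, 27 UMIs), 667 CPM at control P10 (555.5 to 794, 126 UMIs) and 377 CPM at control P6 (280.1 to 497.5, 50 UMIs). Flt1 in the same nuclei had 262, 233 and 226 CPM in these groups, from 18, 44 and 30 UMIs. Angpt1, known to be made by pericytes, had 8, 9 and 3 UMIs there, or 116, 47.6 and 22.6 CPM. In macrophage-like nuclei Nrp1 had 603, 609 and 612 CPM at KO P10, control P10 and control P6.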
